A study of Homo sapiens with 102 samples.

Results

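The CenU position codes T002 to T014 are 13 of the 128 CenU codes, and of the 512 codes in all, that were counted in human artificial chromosomes (HACs). They were followed in HAC 4-65, where they are poor in CENP-A. Code numbers give the order of units in the introduced DNA, which can be rearranged in a HAC, so neighbours by number need not be neighbours in the chromosome. A position code is a stretch of 23 bases that marks 1 repeat unit of a synthetic array of alphoid DNA, the satellite repeat of human centromeres. The centromere unit (CenU, codes T) holds binding boxes for the protein CENP-B, and the non-centromere unit (NCU, codes L) has mutated boxes that do not bind it. The 13 codes were chosen by name as the CENP-A poor edge with the CENP-A reads of this line in view, so their low CENP-A in HAC 4-65 is a description and was not tested. They make up 17.3% of the 75 CenU codes that HAC 4-65 carried, carried meaning a median share of CenU reads of 0.1% or more in the 49 libraries made from that line. The comparison codes were the 21 codes T030 to T050, the main CENP-A domain of the same line.

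All 102 libraries came from HT1080, a human fibrosarcoma cell line, with each HAC line carried in cells of a single clone. In HAC 4-65 and HAC 1-20, chromatin immunoprecipitation (ChIP) was made with 7 antibodies, against CENP-A, H3K4me2, H3K14ac, H4K8ac, H4K20me1, H3K36me2 and H3K9me3, in each of 7 conditions. These were untreated cells, thymidine (arrest at the start of DNA replication), colcemid (arrest in mitosis), 3 h after release from colcemid, and siRNA named siControl, siKAT7 or siHJURP. The other 4 lines, HAC 1-8, HAC 4-2, HAC 3-6 and HAC 4-49, had untreated CENP-A only. DNA of 3 ChIP reactions was pooled before 1 library was made, so each group had 1 library, no value had a replicate and no significance test was possible. Every interval given is a 95% interval that covers counting error only, and PCR copies of 1 molecule cannot be told from separate molecules.

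CENP-A is the histone H3 variant that marks the centromere and on which the kinetochore is built. It is loaded by its chaperone HJURP after mitosis, and KAT7 is an acetyltransferase of histone tails that is known to act at centromeres. H3K9me3 is a mark of heterochromatin, H3K36me2 is found widely over genes and between them, H3K4me2, H3K14ac and H4K8ac are marks of open chromatin, and H4K20me1 is a mark of centromeric CENP-A chromatin whose level changes through the cell cycle.

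The codes are shown because their likeness bears on how reads are told apart, with T002 and T008 as the members of low CENP-A, T004 and T005 as those of many reads, and T012 and T014 as those that stood out in single libraries or lines. Capitals mark the 4 positions, 14, 15, 19 and 20 counted from 1 at the 5′ end, at which the 13 codes differ from each other. The sequences are synthetic and have no place in the human genome.
T002: ggggaaaaaacccATtttATggg
T004: ggggaaaaaacccACtttACggg
T005: ggggaaaaaacccTAtttTAggg
T008: ggggaaaaaacccTCtttTCggg
T012: ggggaaaaaacccGCtttGCggg
T014: ggggaaaaaacccCTtttCTggg
T036, in the CENP-A domain: ggggaaaaagcccACtttACggg

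Each of the 13 codes lay 1 base from 5 other codes, of which 4 were CenU codes and 1 was the NCU code of the same number. T004 differed from T036, a code of the CENP-A domain, by A10G. The NCU code differed from the CenU code of the same number by G4C, which is capital here beside the 4 variable positions.
CenU 003: gggGaaaaaacccAGtttAGggg
NCU 003: gggCaaaaaacccAGtttAGggg

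The reads of codes that were not in the array of HAC 4-65 give the level of such mix-ups. Each of the codes T098 to T110 lies 1 base from the same CENP-A domain code as the member numbered 96 lower, and together they held 0% to 9.08% of the members' reads in the 7 CENP-A libraries. In the 7 H3K36me2 libraries they held 0.169% to 0.343% of the members' reads. HAC 1-20, which has the NCU codes of the same numbers but not the 13 CenU codes, gave member reads that were 0.178% to 0.605% of those NCU reads for H3K9me3 and 1.09% to 14.1% for CENP-A. In HAC 4-65 the corresponding shares were 22.5% to 69.1% for H3K9me3 and 98.7% to 321% for CENP-A, well above the level of the line that lacks the codes. For H4K20me1 the shares were 13.7% to 27.8% in HAC 4-65 against 0.241% to 1.10% in HAC 1-20. Over all 49 libraries of HAC 1-20 the members took 0.0436% to 2.68% of CenU reads, and 0 of the 13 were carried.

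The HAC 4-65 libraries had 1494 to 1212786 matched reads. The 4 shallowest, with 1494 to 6009, were CENP-A in siControl, thymidine and siHJURP cells and H3K4me2 in siHJURP cells. In 4 other libraries the reads jumped from code to code, with a standard deviation over the carried codes, on a log2 scale, above 2. These were H3K4me2, H4K8ac and H4K20me1 after release from colcemid and H3K14ac in siHJURP cells, and they are called scattered below. The limit of 2 was chosen after the values were seen. The scatter showed on the members themselves, since after release T004 had 693 H3K4me2 reads, T009 had 0 and T012 had 1.

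As a set the members took a small share of CENP-A reads and a large share of the H3K36me2 and H3K9me3 reads in all 7 conditions. These shares are not corrected for copy number, and they are not spread evenly over the 13 codes. T002 to T005 had 2.89 to 3.17 times the H3K36me2 reads per code of T006 to T014, and 2.14 to 3.01 times the H3K9me3 reads. The 13 codes held 2.55% of CenU reads in the CENP-A library of untreated cells (2.47% to 2.64%). Their share was 3.54% with thymidine, 4.89% with colcemid, 3.57% after release, 4.91% with siControl, 3.55% with siKAT7 and 4.57% with siHJURP. The siControl share rested on 62 reads (3.78% to 6.24%) and the thymidine share on 92 reads (2.86% to 4.32%). The share on the 21 codes of the CENP-A domain was 29.4% to 40.4%, so the CENP-A shares of the 2 sets of codes did not overlap in any condition. The 2 sets differ in number of codes and were named for their CENP-A, so this separation is a description.

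For H3K9me3 the order was the other way round, with 23.2% of CenU reads on the members in untreated cells, 29.4% with thymidine, 28.9% both with colcemid and after release, 30.5% with siControl, 27.9% with siKAT7 and 28.6% with siHJURP. The CENP-A domain, with more codes, held 5.51% to 8.93%. H3K36me2 on the members was the steadiest of the 7 antibodies, at 22.6% to 26.3% of CenU reads, with 7.30% to 10.2% on the domain. H3K4me2 lay between, at 10.3% to 21.6%, as did H3K14ac at 12.0% to 28.4%, the highest of which came from the scattered siHJURP library. H4K8ac gave 8.98% to 19.3% and H4K20me1 4.87% to 22.0%, the widest range in proportion among the marks, with its low in thymidine and its high in colcemid.

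A unit present in more copies gives more reads with any antibody, so CENP-A was set against the marks of the same condition. The log2 ratio of CENP-A to the mean of the 6 marks on the members, minus the same value on T030 to T050, was -3.74 in untreated cells (-3.79 to -3.68), which is 13.3-fold lower on the members. It was -3.26 with thymidine (-3.57 to -2.95), -4.06 with colcemid (-4.13 to -3.98) and -3.37 after release (-3.47 to -3.28). With siRNA it was -3.25 for siControl (-3.64 to -2.87), -3.75 for siKAT7 (-3.81 to -3.69) and -2.99 for siHJURP (-3.19 to -2.79). CENP-A relative to the marks was thus lower on the members by 7.94-fold to 16.7-fold. The intervals of thymidine, siControl and siHJURP overlapped in part, and they come from the 3 shallow CENP-A libraries. Without the 3 scattered marks the release value was -4.53, below the colcemid value, and the order of the conditions also changed with the reference codes and the marks used. The size also depended on what CENP-A was compared with, from -2.13 to -2.69 over the 7 conditions against all other carried CenU codes in place of T030 to T050, and from -4.69 to -5.43 with only H3K36me2 and H3K9me3 as marks.

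The deficit differed between the single marks. Against H3K9me3, CENP-A was lower on the members than on the domain by -5.04 to -5.65 on the log2 scale, and against H3K36me2 by -4.32 to -5.53. In untreated cells these values were -5.34 (-5.40 to -5.27) and -5.53 (-5.61 to -5.45), or 40.4-fold and 46.2-fold. Against H3K4me2 the range over conditions was -3.08 to -4.37, against H3K14ac -2.88 to -3.94 and against H4K8ac -1.43 to -3.10. H4K20me1 gave the widest range, from -0.44 with thymidine (-0.75 to -0.12) to -3.21 with colcemid (-3.29 to -3.13). Its deficit was the smallest except with colcemid and siKAT7. There H4K8ac gave -3.10 and -2.08, against -3.21 and -3.02 for H4K20me1. In thymidine-arrested cells H4K20me1 was therefore nearly as low on the members, relative to the domain, as CENP-A itself, with 2257 reads on the members and 19033 on the domain. After release the value for H4K20me1 was -1.22 from summed reads but 1.03 from the median over codes, so that scattered library gives no direction.

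The marks were also set against each other, which within a condition ranks them by arithmetic as CENP-A against each mark does and is no separate evidence. The level of H3K9me3 against the mean of the other 5 marks, on the members relative to the domain, was 1.18 to 2.86 on the log2 scale over the 7 conditions. That of H3K36me2 was 0.76 to 2.15. H3K4me2 lay near 0, at -0.35 to 0.46, as did H3K14ac at -0.70 to 0.21. H4K8ac was below 0 throughout, at -1.15 to -2.0, and so was H4K20me1, at -0.89 to -3.39.

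The 13 codes can be read one by one as CENP-A density, the log2 of CENP-A reads (plus 0.5) minus the mean log2 of the reads of the 6 marks (plus 0.5), with the median of the 75 carried codes placed at 0. In untreated cells 13 of the 13 lay at least 2-fold below that median, beside 36% of all carried codes, and this contrast was the one that chose the members. The count was 12 with thymidine beside 34.7% of carried codes, 13 with colcemid beside 37.3%, and 10 after release beside 34.7%. It was 13 with siControl beside 33.3%, 12 with siKAT7 beside 30.7% and 13 with siHJURP beside 30.7%. The median density of the members was between -1.64 with thymidine and -2.57 in untreated cells, and that of the domain between 1.07 and 2.11. In untreated cells the highest member was T013 at -1.63 and the lowest code of the domain was at 0.24. The members and the domain did not overlap in 6 conditions, and overlapped after release, where T014 stood at 0.04 and the lowest domain code at -0.59. Both sets were named for their CENP-A in this line, so their separation is a description. How many other carried codes lay below the domain was not counted.

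T008 was the poorest member in untreated cells at -4.88, with thymidine at -4.91, with colcemid at -6.16 and with siKAT7 at -4.31. Its CENP-A reads were 29, 0, 6 and 38 in these 4 libraries. The codes not in the array had up to 44, 3, 16 and 12 reads each in the same libraries, so in the first 3 the CENP-A reads of T008 cannot be told from that background. T008 had 1 read with siControl and 4 with siHJURP, but 76 after release, where codes not in the array had at most 4 reads and its density was -0.14. The release density also rests on the 3 scattered marks, whose T008 reads were 7, 3 and 2. T002 was low in every condition, at -2.16 to -4.06, with 111 CENP-A reads in untreated cells and 220 with siKAT7.

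Among the other members the order changed between conditions. T014 was lowest with siControl, at -3.19 from 2 reads, and highest after release, at 0.04 from 112 reads. T009 was highest with thymidine at -0.97, from 7 reads, and with siControl at -1.15, from 5 reads. It was lowest after release at -4.83, from 6 reads, and low with colcemid at -5.21, from 12 reads. Codes not in the array had up to 16 reads in that colcemid library, so those 12 reads cannot be told from background. The same holds with thymidine for T007, T010 and T011, with 1, 2 and 2 reads against up to 3. With siHJURP it holds for T012, with 2 reads against up to 3. T013 was the highest member both in untreated cells and with siKAT7, at -0.85 there. T011 was highest with colcemid at -1.43, T005 highest with siHJURP at -1.31, and T006 lowest with siHJURP at -3.88. T003, T004, T007, T010 and T012 never stood at either end, and their densities were between -1.06 (T004, thymidine) and -3.46 (T007, siKAT7). In all, 8 of the 13 codes were at least 2-fold below the median in all 7 conditions and the other 5 (T008, T009, T011, T013 and T014) in 6. The share of all carried codes that lay below in every condition was not counted. In single conditions that share was 30.7% to 37.3%. Over the 13 codes, which share the libraries and the copy number of each code, the correlation between 2 conditions was 0.189 to 0.871 for CENP-A, 0.861 to 0.993 for H3K36me2 and 0.852 to 0.988 for H3K9me3. Without the scattered libraries it was 0.682 to 0.943 for H3K4me2, 0.549 to 0.898 for H4K8ac, 0.521 to 0.951 for H4K20me1 and 0.0321 to 0.770 for H3K14ac, whose lowest value was below that of CENP-A.

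The step from T014, the last member, to T015 differed between conditions. The density of T014 was -2.85 in untreated cells, where the members were chosen, and that of T015 was -0.74, from 176 and 839 CENP-A reads. The values of T014 and T015 were -1.58 and -0.53 with thymidine, -2.75 and -0.77 with colcemid, -3.19 and -0.59 with siControl, -1.31 and -0.47 with siKAT7, and -1.97 and -0.69 with siHJURP. After release the order was turned, with T014 at 0.04 and T015 at -1.13, where 3 marks were scattered. Over the 7 conditions T015 was at -0.47 to -1.13 and T016 at 0.00 to -1.70. The code counted as T001 was at -0.29 to 0.97. The listed code of CenU 001 lies in the primer of CenU 072, and the reverse, and neither lies in its own primer. T001 may therefore be unit 072, and its value cannot be taken as that of the neighbour before T002. T036 of the domain was at 0.70 to 2.76. The 10 carried codes of T015 to T029, between the members and the domain in number, were one comparison. CENP-A against the mean of the 6 marks was lower on the members than on them by -1.77 to -2.29 on the log2 scale. Set against the 11 carried codes of T084 to T095, among the highest numbers of the introduced DNA, the members were lower by -1.43 to -2.16.

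The members were not the poorest alphoid units in CENP-A. Set against the NCU reads of the same libraries, CENP-A relative to the mean of the 6 marks was higher on the members by 3.09 on the log2 scale in untreated cells (3.04 to 3.15) and by 1.03 to 3.09 over the conditions. The comparison with H3K36me2 put the members near the NCU codes in all 7 conditions, at -0.63 to 0.36, and that with H4K8ac did so after release, at -0.031, from a scattered library. H4K20me1 gave the largest excess, 2.11 to 4.10.

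Within the members, T002 to T005 had more reads per code than T006 to T014, by 2.01-fold to 3.77-fold in the libraries that were not scattered. For H3K36me2 the reads per code on T002 to T005 were 2.89 to 3.17 times those on T006 to T014 in the 7 libraries, for instance 1324 against 432 in untreated cells. For H3K9me3 the ratio was 2.14 to 3.01 and for CENP-A 2.33 to 3.69. Copy number of the codes was not used here, so copies and level per copy cannot be told apart in this step.

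Because the step was so even in H3K36me2, each code was also set against its own H3K36me2 reads, with the median over the 13 codes at 0. These values share the H3K36me2 reads as denominator. By the median over conditions H3K9me3 was then highest on T008, at 0.65 to 1.79 on the log2 scale and above 0 in 7 of 7 conditions, and on T014, at 0.29 to 0.89. T006 and T013 were lowest, below 0 in 7 of 7 conditions, at -0.22 to -1.05 and -0.41 to -1.05. H4K20me1, in the 6 conditions without the scattered library, was highest on T014 at 0.63 to 1.80 and T008 at 0.27 to 1.26, and lowest on T007 at -0.41 to -3.26. T008 and T014 were above the median of the members for H3K9me3 and H4K20me1 in each condition compared. T014 was also above it for H3K4me2 in 6 of 6 conditions, but in 4 of 6 for H3K14ac and in 4 of 6 for H4K8ac. The medians of T014 were 0.63 for H3K14ac and 0.86 for H4K8ac, and its lowest H3K14ac value was -4.26 with siKAT7, from 7 reads. T008 was above the median of the members for H3K4me2 in 2 of 6, for H3K14ac in 5 of 6 and for H4K8ac in 3 of 6. CENP-A on T008 was below 0 in 6 of 7 conditions and on T014 above 0 in 5 of 7.

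The comparison of conditions asks whether the chromatin of the edge follows that of the domain through the cell cycle and after loss of KAT7 or HJURP. With 1 library a group there is no replicate, and the difference between siControl and untreated cells is the nearest measure of how far 2 such libraries differ without the intended change. In that comparison the reads of the members relative to the domain were higher for 7 of 7 antibodies, by 0.0035 on the log2 scale for H3K36me2 to 0.90 for CENP-A (0.52 to 1.29), and 0 of 7 reached 2-fold.

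From thymidine to colcemid the members were at least 2-fold higher relative to the domain in 4 of 7 antibodies, and in 0 lower by as much. H4K20me1 gave 3.25 on the log2 scale (3.18 to 3.33), or 9.54-fold, H3K14ac 1.45 (1.26 to 1.64), H4K8ac 1.44 (1.35 to 1.54) and H3K4me2 1.23 (1.15 to 1.31). CENP-A was higher by 0.48 (0.17 to 0.80), less than its difference between siControl and untreated cells, H3K36me2 by 0.41 and H3K9me3 by -0.12. For each of the 4 antibodies past 2-fold, the domain differed more than the members relative to the NCU reads. Values relative to NCU reads also take in any change on the NCU codes themselves, which was not tested. H4K20me1 differed by -0.48 (-0.55 to -0.42) on the members and by -3.74 (-3.77 to -3.70) on the domain. The values on members and domain were -0.018 and -1.47 for H3K14ac, 0.55 and -0.90 for H4K8ac, and 0.42 and -0.80 for H3K4me2. With NCU reads as reference 0 of 7 antibodies were higher by 2-fold on the members, and with all other carried CenU codes as reference 2 were.

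Code by code, H4K20me1 relative to the domain was at least 2-fold higher in colcemid on 13 of 13 members, beside 49.3% of all carried codes. The median was 3.44 for the members and 0.82 for the carried codes. Among the 10 members with at least 100 reads in both libraries T002 was highest, with 101 reads in thymidine and 1644 in colcemid and a difference of 4.65, and T013 lowest, with 193 and 550 reads and 2.14. H3K4me2 was 2-fold higher on 10 of 13 members beside 28% of carried codes, H3K14ac on 9 beside 40% and H4K8ac on 8 beside 21.3%. H3K9me3 was within 2-fold on all 13, from -0.38 at T011 to 0.21 at T012. Of the 75 carried codes, 0 rose and 1 fell by 2-fold in H3K9me3. The median was -0.087 for the members and -0.10 for the carried codes, so the members did not stand apart. The shares for H4K20me1, H3K4me2, H3K14ac and H4K8ac were each above that of all carried codes. Those 75 codes include the members and also the reference codes T030 to T050. The reference codes were compared with their own sum, and the share without them was not counted. The H3K14ac value rests on a shallow thymidine library, with 7 reads (T013) to 66 reads (T002) on a member. It also rests on a colcemid library that came next after the scattered ones. Its standard deviation was 1.64 over the carried codes and 0.57 over the members. By 2-fold, 16 of the 75 carried codes fell in H3K14ac, and 0 members did.

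From colcemid to 3 h after release the direction was the opposite. The members were lower relative to the domain for 7 of 7 antibodies, and 3 passed 2-fold, H4K20me1 at -2.44, H3K4me2 at -1.74 and H4K8ac at -1.19. These were the 3 scattered libraries, and without them 0 of 4 antibodies passed. Relative to NCU reads, H4K20me1 differed by 0.87 on the members and 3.31 on the domain. Those values were -0.50 and 1.23 for H3K4me2, and 0.64 and 1.83 for H4K8ac. Of the 4 others H3K14ac was at -0.83 (-0.89 to -0.78), CENP-A at -0.44 (-0.56 to -0.33), H3K9me3 at -0.32 (-0.37 to -0.27) and H3K36me2 at -0.26 (-0.34 to -0.18). For CENP-A 3 members had 100 reads in both libraries, and they were between -0.38 at T004 and 0.35 at T014. For H3K9me3 the 13 members were between -0.84 at T011 and -0.00065 at T002, and for H4K20me1 the 4 members with enough reads were between -1.91 at T003 and -0.90 at T004. Set against thymidine, the release libraries differed by -0.51 to 0.82 and 0 of 7 passed 2-fold, with H4K20me1 at 0.82 (0.68 to 0.95) from a scattered library. In that comparison H3K9me3 was lowest at T011, at -1.22, and highest at T007, at -0.17, and H4K20me1 was between 0.97 at T005 and 1.94 at T004 on 3 members with enough reads.

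With siKAT7 against siControl 1 of 7 antibodies was at least 2-fold higher on the members relative to the domain, and it was again H4K20me1, at 1.07 (1.03 to 1.11), which is 2.10-fold. Its difference between siControl and untreated cells was 0.14. Relative to NCU reads, the members differed by -0.24 and the domain by -1.31, so on that scale the domain again differed more. With NCU reads as reference the count was 0. A change on the NCU codes themselves was not tested. The difference was 2-fold or more on 7 of 13 members beside 16% of carried codes, which again include the members and the reference codes. T011 was highest, at 1.99 from 385 reads with siControl and 694 with siKAT7, and T004 lowest, at 0.54 from 1746 and 1152 reads. The other 6 antibodies were lower on the members, by -0.10 for H3K14ac to -0.65 for CENP-A (-1.04 to -0.27) and for H3K36me2 (-0.73 to -0.57). The CENP-A value is smaller in size than that between siControl and untreated cells and shares the siControl library with it, which had 62 reads on the members. H3K9me3 was at -0.17, from -0.55 at T014 to 0.15 at T006. Relative to NCU reads, H3K9me3 was higher with siKAT7 by 0.83 on the members and 1.00 on the domain. Between siControl and untreated cells those values were 1.01 and 0.32.

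With siHJURP against siControl 0 of 7 antibodies passed 2-fold in either direction. CENP-A on the members relative to the domain differed by 0.15 (-0.28 to 0.58), an interval that includes 0, so a difference was not detectable at this depth, and the libraries had 243 and 62 reads on the members. H4K20me1 was at -0.55 (-0.59 to -0.50), H4K8ac at -0.48 (-0.55 to -0.40) and H3K14ac, from the scattered library, at 0.42. H3K4me2 was at -0.015 (-0.30 to 0.27), H3K36me2 at -0.16 and H3K9me3 at 0.084. Relative to NCU reads, H3K9me3 was higher with siHJURP by 1.04 on the members and 0.95 on the domain. Between siControl and untreated cells those values were 1.01 and 0.32. T002 had the lowest H4K20me1 value, at -1.98 from 1418 and 287 reads, and T013 the highest, at 0.59 from 316 and 380 reads. For H3K9me3 T012 was lowest at -0.64 and T013 highest at 0.67. The comparisons with siKAT7 and siHJURP share the siControl libraries.

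In HAC 3-6, HAC 4-49 and HAC 4-2 the same codes also had fewer CENP-A reads per code than T030 to T050, by different amounts. Only CENP-A was measured there, so copy number is not corrected, and the values are reads per code. All 21 codes T030 to T050 were counted in each line. Of these, 16 in HAC 3-6 and 18 in HAC 4-2 reached 0.1% of CenU reads. In HAC 4-65 the 13 codes had 2.55% of CenU reads and the 21 domain codes 34.0%, which is 8.25-fold lower per code. HAC 3-6 was next, with 4.77% (4.73% to 4.81%) against 48.4%, or 6.29-fold lower. HAC 4-49 had 6.01% (5.95% to 6.07%) against 41.4%, or 4.26-fold lower. HAC 4-2 stood nearest to evenness, with 11.3% (10.9% to 11.7%) against 35.1%, or 1.92-fold lower. The intervals of these 4 lines did not overlap. HAC 1-8 and HAC 1-20 had 40 and 131 reads on the 13 codes, 0.592% and 0.251% of CenU reads. In these CENP-A libraries 0 of the 13 reached 0.1%, so no comparison was made there.

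Single codes differed between the lines more than the set did. T008, the poorest in HAC 4-65 with 29 reads, had 6194 in HAC 4-49, 276 in HAC 4-2 and 7946 in HAC 3-6, each among the richer members of its line. T012 had 24359 reads in HAC 3-6, 44.0% of the member reads there, and 1231 in HAC 4-49, where T011 was richest with 8822. T007 was richest in HAC 4-2 with 392 reads. T004, the richest in HAC 4-65 with 872 reads, had 395 in HAC 3-6, where T006 was poorest with 153. In the CENP-A library of untreated cells, 13 of the 13 had at least 0.1% of CenU reads in HAC 4-2. The number was 12 in HAC 4-49, 9 in HAC 3-6 and 10 in HAC 4-65. By its 49 libraries HAC 4-65 carried all 13, so a code below this CENP-A share can still be present.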

How the data were processed

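Each library was a pool of 3 ChIP reactions from fixed, sonicated HT1080 chromatin, whose position codes were amplified together by competitive PCR. Per their processing notes, the authors used cutadapt 4.0 for trimming, Bowtie for matching to the codes and SAMtools for counting. They deposited raw read counts per code, which are not normalised. Codes L were taken as NCU. Unmatched reads, 6.39% to 12.7% in HAC 4-65, were left out of totals. Authors' qPCR recovery was not used here, so values are relative within a library.

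Libraries were grouped by line, antibody and treatment from the labels, 1 per group. Reads were summed over T002 to T014 and over T030 to T050, and log2 ratios of the sums were compared between antibodies or conditions. Their intervals follow from the counts, and those of shares are exact binomial (Clopper-Pearson). Density used a pseudocount of 0.5. Calls meant a 2-fold difference. The members, lists and comparisons were chosen with earlier results of these data known. Codes named were all 13, with, per condition, the ends of density and, per comparison, the largest and smallest difference in CENP-A, H4K20me1 and H3K9me3 among members with at least 100 reads in both libraries. Alternatives changed the reference codes, the summary over codes, the marks compared, the codes kept, background, thresholds and pseudocount. Sequences came from the study's list of codes. Scripts were tested on simulated data and used Python 3.11.15, numpy 2.4.6, pandas 2.3.3 and scipy 1.17.1.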

Additional observations from a re-analysis of the deposited data

How the results depend on the processing

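CENP-A against the mean of the 6 marks was lower on the members than on the CenU reference codes in each condition in which an alternative gave a value, which was 7 conditions for all but 2 alternatives, 6 for the minimum of 20 reads and 2 without the scattered libraries. Relative to the NCU reads it was higher, at 1.03 to 3.09. The values, in the order untreated, thymidine, colcemid, release, siControl, siKAT7 and siHJURP, moved beyond their counting intervals as follows. With all other carried CenU codes as reference they were -2.69, -2.17, -2.55, -2.32, -2.13, -2.66 and -2.13, with H3K36me2 and H3K9me3 alone as marks -5.43, -5.20, -4.87, -5.02, -4.88, -5.12 and -4.69, and with the 4 euchromatic marks alone -2.89, -2.29, -3.65, -2.55, -2.44, -3.07 and -2.14. The median over codes gave -3.86 in untreated cells, -4.16 with colcemid and -3.56 with siHJURP. Leaving out T002 and T008 gave -3.56 in untreated cells, -3.86 with colcemid and -3.62 with siKAT7. Subtracting the mean reads of CenU codes that are not carried gave -3.89 in untreated cells and -4.14 with colcemid, and subtracting the reads of the code numbered 96 higher, an alternative chosen after seeing the data, -3.85 in untreated cells. Leaving out codes under 20 reads gave -2.28 with thymidine, -3.91 with colcemid and -2.73 after release, fewer codes being summed, and no value with siControl. Without the 4 scattered libraries, also chosen after seeing the data, the release value was -4.53. The causes of the other shifts were not tested.

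With a threshold of 4-fold in place of 2-fold, 6 members lay below the median of carried codes with thymidine, 8 with colcemid, 7 with siControl and 7 with siKAT7. The share of all carried codes past 4-fold was not counted. For the number of antibodies past 2-fold, the NCU reads as reference gave 2 higher for siControl against untreated, 0 higher for colcemid against thymidine, 0 lower for release against colcemid, 1 higher for release against thymidine, 0 higher for siKAT7 and 1 higher for siHJURP. Other carried CenU codes gave 2 higher for colcemid against thymidine. The median over codes gave 2 lower for release against thymidine and 1 higher for siHJURP. A threshold of 1.5-fold gave 4 higher for siControl against untreated, 2 higher for release against thymidine and 3 lower for siKAT7. Without the scattered libraries 0 were lower for release against colcemid. CENP-A against H4K20me1 after release turned to 1.03 with the median over codes, and of the 856 values under an alternative it was the only 1 to change sign after being past 2-fold.

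No paired analysis was possible because each group had 1 library and the labels carry no replicate numbers. Leaving out a replicate was likewise not possible. Depth limits CENP-A most, since the members had 62 reads with siControl and 92 with thymidine and T008 had 1 and 0 reads there.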
